A study of Mus musculus with 11 samples.

Results

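Amino acid and neurotransmitter transporters were taken as the genes of the solute carrier families SLC1, SLC3, SLC6, SLC7, SLC36, SLC38 and SLC43, chosen by gene symbol. The name pattern matched 61 rows of the 23337 in the count table, besides 1 further row that the rule leaves out, and 40 of the 61 had 10 or more counts in at least 5 libraries. These 40 genes are the members described here. The remaining 21 rows lay below that filter and are given at the end. One member, Slc7a6os, carries the pattern only through its name and encodes no solute carrier.

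The libraries came from adrenal glands of male mice of the nude strain Hsd:Athymic Nude-Foxn1nu, which lack a functional Foxn1 gene and with it a normal thymus. All animals of both groups had been inoculated with VCaP, a line of human prostate cancer cells, at 5 to 6 weeks of age. Group allocation followed at study week 7 and the glands were taken at study week 15. The intact group (n = 5) kept the testes and the ORX group (n = 6) was orchiectomised, that is, the testes were removed. The comparison asks which transporter genes differ in the adrenal between mice with and without testes. The tumour graft was common to both groups, and its size was not used here. Total gene counts were 11368447 to 15029582 per library. Levels are given as CPM, counts scaled to a common library size. Markers of adrenal cortex were abundant in each library (mean log2 CPM 10.63 to 12.10 over 10 genes), while none of 10 kidney markers passed the filter for testing (at most 14 counts in a library). Of the 10 cortex markers, Hsd3b1, Cyp21a1 and Mc2r rose in ORX, against 3.03% of all tested genes. The other 7 did not pass, and the fitted log2 fold change was above 0 in 7 of the 10 and below 0 in 3. X-zone markers, which belong to the juvenile inner cortex, scored 1.14 to 2.49 in intact and 6.80 to 8.90 in ORX. The score of medulla markers was 7.23 to 7.84 in intact and 6.42 to 7.20 in ORX, without overlap. Zona glomerulosa markers (6.31 to 7.29 against 5.67 to 6.19) and glial markers (3.05 to 3.32 against 2.54 to 2.93) did not overlap either. Scores of stroma, endothelium, macrophages and fat overlapped between the groups. Even so, the median log2 fold change, ORX against intact, was -0.62 over stroma, -0.41 over endothelium and -0.60 over fat markers. Over macrophage markers it was 0.09. In bulk tissue, fewer cells of a type and less RNA per cell cannot be told apart.

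Amino acids cross membranes through carriers that either move them together with sodium or protons or exchange one amino acid for another. SLC1 proteins carry glutamate, aspartate or small neutral amino acids, and SLC6 proteins use sodium and chloride to carry neurotransmitters, amino acids, taurine and creatine. SLC7 proteins fall into cationic amino acid transporters, which work alone, and light chains, which reach the membrane only when bound to a heavy chain of the SLC3 family. SLC36 and SLC38 proteins carry small neutral amino acids with protons or sodium, in part at the lysosome, and SLC43 proteins are facilitators. In the adrenal the steroid-producing cortex surrounds a medulla of catecholamine-producing chromaffin cells, which share many genes with neurons.

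Of the 40 members, 3 rose and 5 fell in ORX. Slc6a6, Slc7a5 and Slc6a15 were the ones that rose, and Slc6a17, Slc7a14, Slc1a1, Slc38a11 and Slc6a8 the ones that fell (edgeR quasi-likelihood fit over all 14139 tested genes, adjusted p below 0.05). The 8 called members are 20% of the 40, against 6.21% of all tested genes. The 3 that rose are 7.5% of the members, against 3.03% of all tested genes, and the 5 that fell are 12.5%, against 3.18%. In 5 members (12.5%, against 5.28% of all tested genes) the values of the groups did not overlap. The median log2 fold change was -0.22 over the members and 0.01 over all tested genes, and the median of its absolute size was 0.47 against 0.26. The number of falls was 2 to 7 and that of rises 1 to 3 when single libraries were left out, and no member passed with a medulla score in the fit. An unadjusted edgeR p under 0.05 was found in 17 of the 40 members and in 3244 of the 14139 tested genes, of which 8 and 878 passed the adjusted threshold. The 9 such members that did not pass included 2 higher in ORX.

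**Figure D1:**
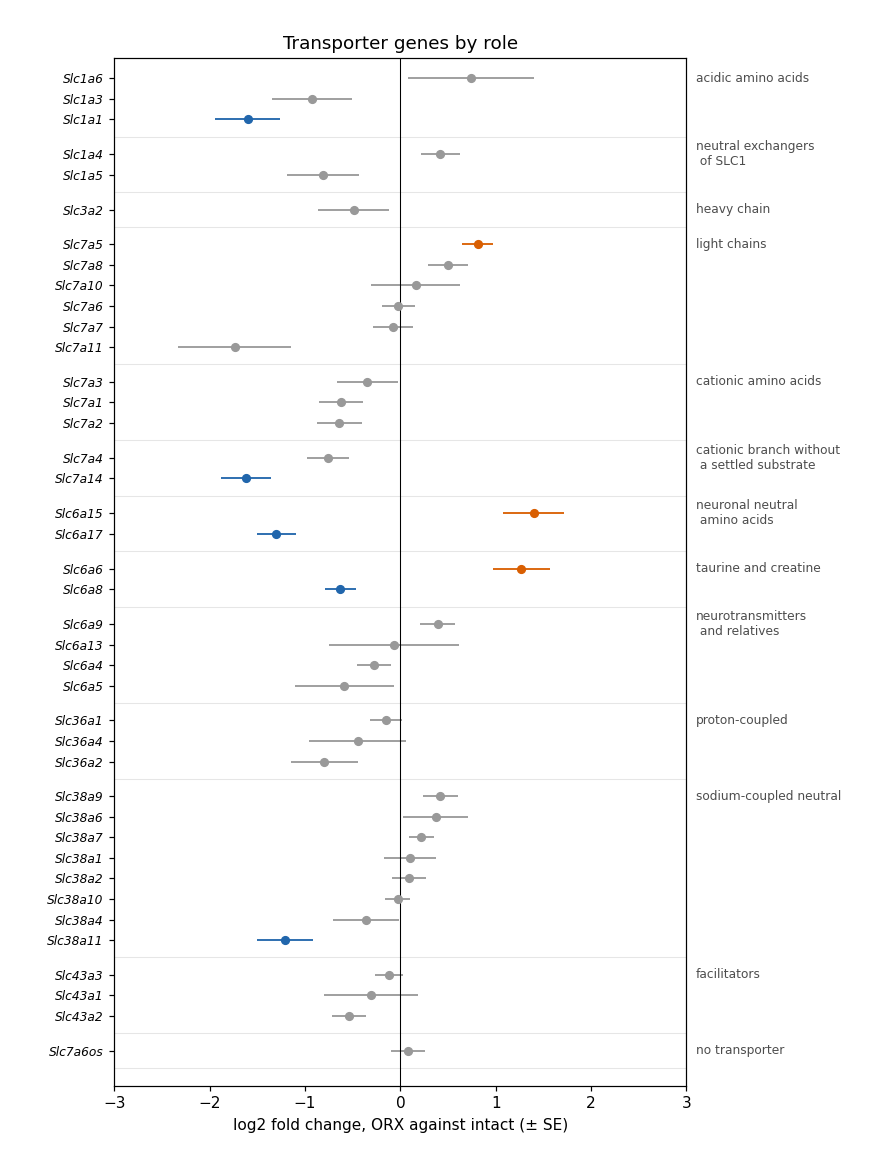
Each point is the log2 fold change of 1 member, ORX against intact (horizontal axis), with its standard error as a bar, and genes are grouped by role on the vertical axis. Orange marks the 3 members that rose, blue the 5 that fell and grey the 32 that did not pass; the taurine and creatine transporters Slc6a6 and Slc6a8 lie on opposite sides of 0, as do the neuronal transporters Slc6a15 and Slc6a17.

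Taurine and creatine transporters moved in opposite directions. Slc6a6 (chromosome 6, 91684053 to 91759066, GRCm38, plus strand) encodes the transporter that takes up taurine, a sulfur-containing osmolyte, and had the highest mean CPM of the 40 members over all 11 libraries, and the third highest within intact, after Slc3a2 and Slc1a5. It stood at 474, 349, 339, 669 and 406 CPM in intact 1 to 5, and in ORX the lowest value was 505 in ORX 6, the median 1118 and the highest 1634 in ORX 4. The groups overlapped only through ORX 6, which lay below intact 4. Mean levels were 447 ± 135 CPM in intact and 1078 ± 438 CPM in ORX (SD, n = 5 and 6). Slc6a6 rose by 1.27 ± 0.30 (log2, SE; 2.41-fold, edgeR adjusted p = 0.0274). Slc6a6 also overlaps the predicted antisense gene Gm44981, so its counts may hold reads of that partner.

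Slc6a8 (X chromosome, 73673150 to 73682502, plus strand) encodes the creatine transporter, through which cells obtain the substrate of creatine kinase. Its values were 221, 167, 109, 151 and 158 CPM in intact 1 to 5, against 90.3, 108 and 114 CPM as the lowest, median and highest in ORX. Only intact 3 lay within the ORX range. Slc6a8 fell by 0.63 on the log2 scale (SE 0.16; edgeR adjusted p = 0.0359). The calls of Slc6a6 and Slc6a8 each ended without any 1 of intact 1, intact 2, intact 5, ORX 1, ORX 2, ORX 4 and ORX 5 (largest edgeR adjusted p 0.0757 for Slc6a6, omitting intact 5, and 0.0933 for Slc6a8, omitting intact 1).

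The neuronal neutral amino acid transporters also split. Slc6a15 (chromosome 10, 103367783 to 103419377, plus strand) encodes a carrier of branched-chain amino acids and proline that is best known from brain. It had 4.67, 3.65, 6.09, 12.7 and 6.52 CPM in intact 1 to 5 and a lowest value of 10.8, a median of 18 and a highest value of 25.3 CPM in ORX. Intact 4 reached into the ORX range, above ORX 3 alone. Slc6a15 rose by 1.40 ± 0.32 (log2, SE; 2.65-fold, edgeR adjusted p = 0.0225), and the call ended without any 1 of intact 1, 2 and 5 and ORX 1, 2 and 5 (largest edgeR adjusted p 0.0611, omitting intact 1).

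Slc6a17 (chromosome 3, 107467543 to 107518018, minus strand) encodes a related carrier of synaptic vesicles. It stood at 46.6, 53, 29, 35.2 and 48.2 CPM in intact 1 to 5 and at 12.4, 17.1 and 23.5 CPM as the lowest, median and highest in ORX. Every ORX library lay below every intact library. Mean levels were 42.4 ± 9.93 and 17.2 ± 4.03 CPM, with a log2 difference of -1.30 ± 0.20 (SE; edgeR adjusted p = 0.00246), the smallest adjusted p of the 40 members. Omitting single libraries moved that difference between -1.43 and -1.21, and Slc6a17 passed each time (largest edgeR adjusted p 0.0104).

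The cationic branch of SLC7 held the largest fall among the members that passed. Slc7a14 (chromosome 3, 31202858 to 31310378, minus strand) encodes a lysosomal member of that branch that is prominent in the nervous system and whose substrate is not settled. It had 63.7, 43.9, 25.2, 25.9 and 53.6 CPM in intact 1 to 5 and 10.3, 12.7 and 21.2 CPM as the lowest, median and highest in ORX. The groups did not overlap, but the highest ORX library, ORX 3, came close to intact 3 and 4. The log2 fold change was -1.62 ± 0.26 (SE; 3.08-fold lower, edgeR adjusted p = 0.00344), and the call held without any 1 library (largest edgeR adjusted p 0.0138). Slc7a4, the other member without a settled substrate, went from 33.1 ± 4.29 to 19.5 ± 6.95 CPM and missed the threshold (log2 -0.76 ± 0.22, edgeR adjusted p = 0.0544). Its ORX values were 11.7 to 21.4 CPM except for 32.2 CPM in ORX 6, and without ORX 6 it passed (log2 -0.97, edgeR adjusted p = 0.00592).

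The transporters of cationic amino acids proper did not pass. Slc7a1, the widespread arginine and lysine transporter, had 363, 297, 141, 182 and 337 CPM in intact 1 to 5 and 142, 179 and 201 CPM as the lowest, median and highest in ORX. Intact 1, 2 and 5 lay above every ORX library and intact 3 below every one, and the log2 fold change was -0.62 ± 0.23 (SE; edgeR adjusted p = 0.123). Without intact 3 it passed as lower (log2 -0.79, edgeR adjusted p = 0.0267). Slc7a2, an arginine transporter known from liver and macrophages, was at -0.64 ± 0.24 and the brain-enriched Slc7a3, at 0.53 to 1.75 CPM in all libraries, at -0.35 ± 0.32 (edgeR adjusted p = 0.139 and 0.557).

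**Figure D2:**
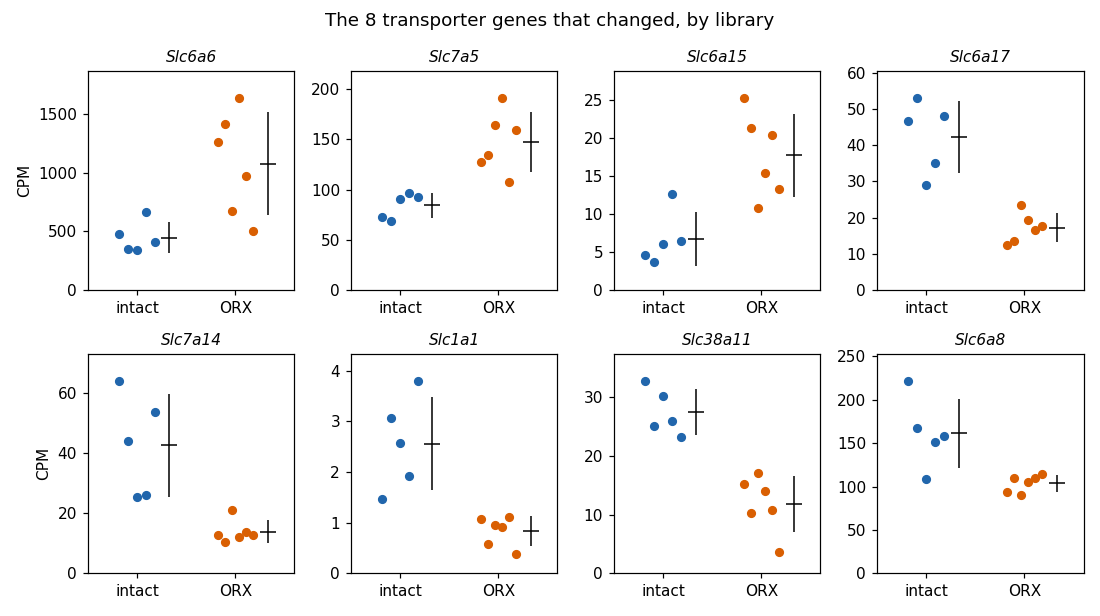
Each panel shows 1 of the 8 members that changed, with each library as a point in CPM (vertical axis, starting at 0) for intact (blue, n = 5) and ORX (orange, n = 6) and the mean and SD as a black bar. Slc7a5, Slc6a17, Slc7a14, Slc1a1 and Slc38a11 show no overlap between the groups, whereas Slc6a6, Slc6a15 and Slc6a8 overlap through 1 library each.

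Several changed members ran beside marker scores of the gland's compartments. Within the intact group, Slc6a17 and Slc7a14 were both highest in intact 1, 2 and 5, whose medulla scores were 7.84, 7.69 and 7.52, and lowest in intact 3 and 4, with scores of 7.26 and 7.23. These 3 libraries were the highest of the intact group in 18% of all tested genes, and their zona glomerulosa scores (7.26, 7.13 and 7.29, against 6.31 and 6.57) and cortex scores were the highest as well. Within ORX, ORX 3 had the highest medulla score (7.20) and the highest level of both genes, and it also led its group in the glial, stroma and fat scores. ORX 6, with a medulla score of 7.16, had 17.8 CPM of Slc6a17 and 12.6 CPM of Slc7a14, below ORX 4 (19.3 CPM, score 6.77) and ORX 1 (12.9 CPM, score 6.42), respectively. Because the medulla score differed between the groups without overlap, its part and that of the group cannot be told apart. Of the 20 medulla markers 5 fell (Slc18a2, Npy, Ret, Cartpt and Rab3c), 15 did not pass, and none was at 0. Among all tested genes 3.18% fell. The fitted log2 fold change was below 0 in 17 of the 20 medulla markers and above 0 in 3, with a median of -0.58. When the fit included the medulla score, which itself separates the groups, 84 of all 14139 tested genes and 0 of the 40 members passed in edgeR. There, 1998 of all tested genes and 7 of the members had an unadjusted edgeR p under 0.05. The log2 fold change in that fit was -0.60 for Slc6a17 and -0.71 for Slc7a14. In the same fit it was 0.82 for Slc7a5, -1.96 for Slc1a1 and -1.36 for Slc38a11, and 0.38, 0.27 and -0.29 for Slc6a6, Slc6a15 and Slc6a8.

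Within ORX, Slc6a6 and Slc6a15 had their lowest values in ORX 3 and ORX 6, the libraries with the lowest X-zone scores (6.80 and 6.88, against 7.93 to 8.90 in the others). Slc38a1 and Slc36a4 shared that order, and so did 10.8% of all tested genes, close to the 10% of the members. ORX 6 was also low for long transcripts in general (median log2 deviation from the other ORX libraries -0.42 over tested genes with a longest transcript above 3926 bases and 0.26 over the others), and Slc6a6 (6186 bases), Slc38a1 (7266) and Slc36a4 (6539) are of that kind, whereas Slc6a15 (3607) is not. The parts of X-zone cells and of transcript length in these values were not tested.

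**Figure D3:**
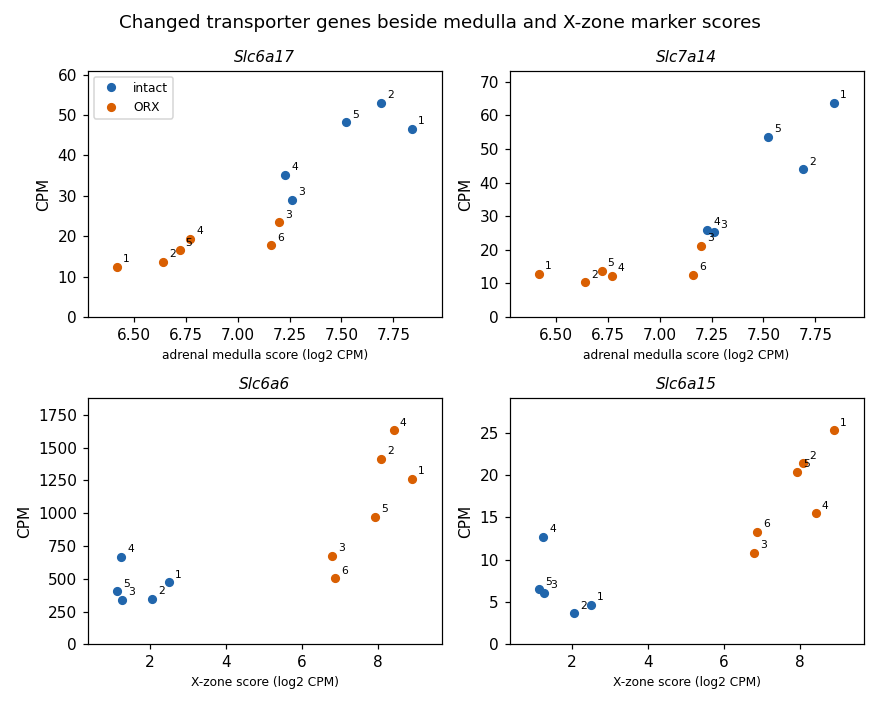
Each point is 1 library (intact blue, ORX orange, labelled by its number), with the CPM of a transporter gene on the vertical axis and the mean log2 CPM of marker genes on the horizontal axis. The upper panels show Slc6a17 and Slc7a14 beside the medulla score (6.42 to 7.84), and the lower panels Slc6a6 and Slc6a15 beside the X-zone score (1.14 to 8.90), where ORX 3 and ORX 6 lie lowest among the ORX libraries on both axes.

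Among the heteromeric transporters, a light chain rose while the heavy chain did not pass. Slc7a5 (chromosome 8, 121881150 to 121907694, minus strand) encodes LAT1, which exchanges large neutral amino acids such as leucine and needs the heavy chain Slc3a2 to reach the membrane. It had 72.9, 68.6, 90.8, 96.5 and 93 CPM in intact 1 to 5 and 108, 147 and 191 CPM as the lowest, median and highest in ORX. Every ORX library lay above every intact library. The rise was 0.81 ± 0.16 (log2, SE; 1.75-fold, edgeR adjusted p = 0.0124), and it passed without any 1 library (largest edgeR adjusted p 0.0408, omitting intact 1).

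Slc3a2 (chromosome 19, 8706882 to 8723369, minus strand), which encodes the heavy chain CD98, varied more within the groups than between them. It stood at 891, 840, 238, 254 and 675 CPM in intact 1 to 5 and at 204, 389 and 600 CPM as the lowest, median and highest in ORX. Intact 1, 2 and 5 lay above every ORX library, while intact 3 and 4 lay near the bottom of the ORX range, and the log2 fold change was -0.49 ± 0.37 (SE; edgeR adjusted p = 0.466). With the medulla score in the fit its sign changed to 1.26, which did not pass either (edgeR adjusted p = 0.154). Per kilobase of exon, Slc3a2 had the highest mean level of the members in intact (164 CPM per kilobase), ahead of Slc1a5 (113), Slc36a2 (64.3) and Slc6a6 (52.9). In ORX the order was headed by Slc6a6 (127 CPM per kilobase) and Slc3a2 (117).

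The other light chains did not pass. Slc7a8, which encodes LAT2, a neutral amino acid exchanger, went from 125 ± 27.4 to 177 ± 51.9 CPM (log2 change 0.50 ± 0.21, edgeR adjusted p = 0.182), and its ORX range of 122 to 266 CPM overlapped the intact range of 81.9 to 147 CPM. Slc7a6 and Slc7a7, which exchange cationic against neutral amino acids, were at -0.02 ± 0.17 and -0.08 ± 0.21, and the serine and alanine exchanger gene Slc7a10 at 0.16 ± 0.47 (log2, SE). Summed per kilobase, the 6 light chain genes stood at 61.3 to 71 CPM per kilobase in intact and 72.8 to 122 in ORX. Slc7a5 and Slc7a8 together made up 59% (intact 3) to 89.5% (ORX 4) of that sum, and Slc7a5 alone already separated the groups. The ratio of Slc3a2 to that sum was 3.94, 3.74 and 2.69 in intact 1, 2 and 5, 0.972 and 1.18 in intact 3 and 4, and 0.766 to 1.72 in ORX. The ratio was below 1 in intact 3, ORX 1 and ORX 4. This sum was formed after the values were seen and was not tested.

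**Figure D4:**
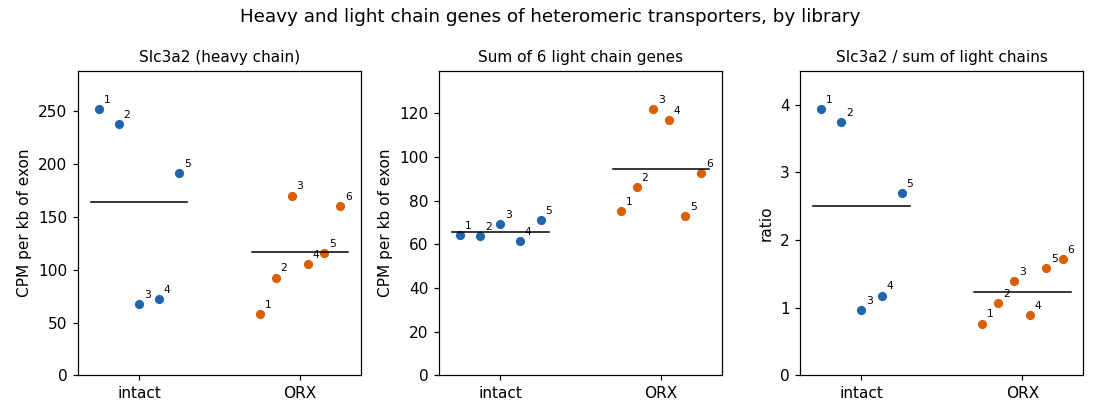
Points are libraries (intact blue, ORX orange, numbered) and lines are group means, for the heavy chain gene Slc3a2, the sum of 6 light chain genes (both in CPM per kilobase of exon, from 0) and their ratio. Intact 1, 2 and 5 stand above the other libraries in the heavy chain and in the ratio, whereas in the light chain sum the intact libraries (61.3 to 71) lie below the ORX libraries (72.8 to 122).

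Slc7a11 encodes xCT, the cystine and glutamate exchanger that supplies cysteine for glutathione, and was near the lower end of what was measured. It had 2.92, 6.63, 0.596, 0.669 and 4.02 CPM in intact 1 to 5 and 0.431, 0.703 and 1.62 CPM as the lowest, median and highest in ORX. Again intact 1, 2 and 5 were high and intact 3 and 4 within the ORX range. The log2 fold change of -1.74 ± 0.59 did not pass (edgeR adjusted p = 0.0995) and did so without intact 3 (log2 -2.03, edgeR adjusted p = 0.0411). Intact 1, 2 and 5 were the highest of the intact libraries in 10 of the 40 members (25%), against 18% of all tested genes. These 3 libraries also had the highest cortex scores of the group (11.74 to 12.00, against 10.63 in intact 3 and 11.34 in intact 4).

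Slc7a11 is a known target of ATF4, a transcription factor induced by amino acid shortage. The 250 bases before its start (RefSeq, GRCm38.p6) hold the letters of the ATF4 amino acid response element on both strands, and windows before annotated starts of Slc7a7 hold them as well. These matches are shown because they are the only ones in the windows that were listed, which cover 29 of the 40 members. The other members, Slc7a5, Slc6a15, Slc6a6 and Slc6a8 among them, had no window and were not searched. Capitals mark the matched letters, TGATGNAA or its reverse complement TTNCATCA, written 5′ to 3′ on the gene's strand.
Slc7a11, chr3:50443661-50443690, minus strand: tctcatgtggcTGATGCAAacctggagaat
Slc7a11, chr3:50443642-50443671, minus strand: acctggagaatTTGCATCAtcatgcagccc
Slc7a7, chr14:54418067-54418096, minus strand: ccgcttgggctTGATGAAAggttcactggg
Slc7a7, chr14:54417927-54417952, minus strand: tagaagcTGATGCAAcagcttccccg
The element was found in 3 of 44 windows of the members (6.82%) and in 3.45% of all 32851 windows. A match is only a description of the letters. Of 31 tested genes in a list of the ATF4 and amino acid stress response, 1 rose, 1 fell and 29 did not pass, with a median log2 fold change of -0.08. Among all tested genes 3.03% rose and 3.18% fell, so these counts set the list apart in neither direction. The one that rose was Gpt2, an alanine aminotransferase (85 ± 15.9 to 223 ± 59.3 CPM, with a log2 change of 1.39 ± 0.20 and edgeR adjusted p = 0.00154), and the one that fell was Atf5, a transcription factor related to ATF4 (199 ± 39.7 to 115 ± 35 CPM, with a log2 change of -0.79 ± 0.21 and edgeR adjusted p = 0.0458).

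The acidic amino acid transporters held 1 fall. Slc1a1 (chromosome 19, 28835049 to 28913960, plus strand) encodes EAAC1, the neuronal and epithelial transporter of glutamate, aspartate and cysteine. It was weakly expressed, with 1.46, 3.06, 2.58, 1.92 and 3.79 CPM in intact 1 to 5 and 0.377, 0.936 and 1.12 CPM as the lowest, median and highest in ORX. The groups did not overlap. These levels rest on 20 to 50 counts per intact library and 5 to 15 per ORX library, and the log2 fold change was -1.60 ± 0.34 (SE; 3.04-fold lower, edgeR adjusted p = 0.0145). The call ended without intact 5 (edgeR adjusted p = 0.0501), and Slc1a1 overlaps the antisense gene 4430402I18Rik.

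Slc1a3, which encodes the glial glutamate transporter GLAST, had 87.2, 56.8, 169, 85.1 and 89.7 CPM in intact 1 to 5. In ORX, ORX 3 had 137 CPM and the other libraries 26.8 to 42.3 CPM, with a median of 36.4 over all 6. Apart from ORX 3, every ORX library lay below every intact library. With all libraries it did not pass (log2 -0.93 ± 0.42, edgeR adjusted p = 0.2), and without ORX 3 it passed as lower (log2 -1.52, edgeR adjusted p = 0.00441). Of 13 glial markers 1, Gfap, fell and 12 did not pass, while 3.18% of all tested genes fell. The fitted log2 fold change was below 0 in 10 of the 13 and above 0 in 3, with a median of -0.58. ORX 3 had the highest glial score of the ORX group (2.93, against 2.54 to 2.78). Intact 3, the highest intact library for Slc1a3, had a glial score of 3.29, below intact 2 (3.30) and intact 5 (3.32). Slc1a6, a glutamate transporter of the cerebellum, was at 0.0729 to 1.89 CPM (log2 change 0.74 ± 0.66, edgeR adjusted p = 0.543).

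The neutral exchangers of SLC1 did not pass. Slc1a5 (chromosome 7, 16781340 to 16798274, plus strand), which encodes the glutamine transporter ASCT2, had 286, 269, 1042, 420 and 335 CPM in intact 1 to 5 and 141, 245 and 467 CPM as the lowest, median and highest in ORX. Intact 3 stood far above the others. The log2 fold change was -0.81 ± 0.38 (edgeR adjusted p = 0.222), and -0.30 without intact 3 (edgeR adjusted p = 0.547). Slc1a4, the related serine and alanine exchanger, was at 0.42 ± 0.20 (edgeR adjusted p = 0.236).

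In 4 members, Slc1a3, Slc1a5, Slc36a2 and Slc7a10, intact 3 was the highest intact library and ORX 3 the highest ORX library, an order found in 3.75% of all tested genes. Intact 3 and ORX 3 also had the highest scores of fat markers in their groups (9.72 in intact 3 and 9.01 in ORX 3, where the other ORX libraries had 7.46 to 8.71). ORX 6 came next to ORX 3 in fat score (8.71) but had the lowest Slc1a3 level of all libraries (26.8 CPM). Its Slc36a2 (116 CPM) and Slc1a5 (293 CPM) lay below those of ORX 1 (128 and 318 CPM, score 7.91). Within ORX, only ORX 3 exceeded its Slc7a10 level (31.2 CPM). All 10 fat markers were detected, from Lep at 36.5 ± 39.6 CPM to Fabp4 at 3457 ± 1272 CPM in intact. None passed the test, but the fitted log2 fold change was below 0 in all 10 (median -0.60). Slc36a2, a proton-coupled glycine and proline transporter known from brown fat, had 158, 88, 362, 220 and 220 CPM in intact 1 to 5, and 222 CPM in ORX 3 against 62 to 128 CPM in the other ORX libraries (log2 -0.80 ± 0.35, edgeR adjusted p = 0.185). Slc7a10 stood at 42.6 CPM in intact 3 and 71.2 CPM in ORX 3, against 11.6 to 31.2 CPM in the other libraries. With the fat score as a covariate, the log2 fold change was -0.08 for Slc36a2, -0.10 for Slc1a5, -0.36 for Slc1a3 and 0.63 for Slc7a10, and none of the 4 passed in edgeR. In the same fit, 5 of the 8 changed members passed, and Slc6a6 (log2 0.83), Slc6a15 (1.33) and Slc38a11 (-1.20) did not (edgeR adjusted p = 0.175, 0.0961 and 0.0702). Without intact 3 and ORX 3, all 8 passed.

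**Figure D5:**
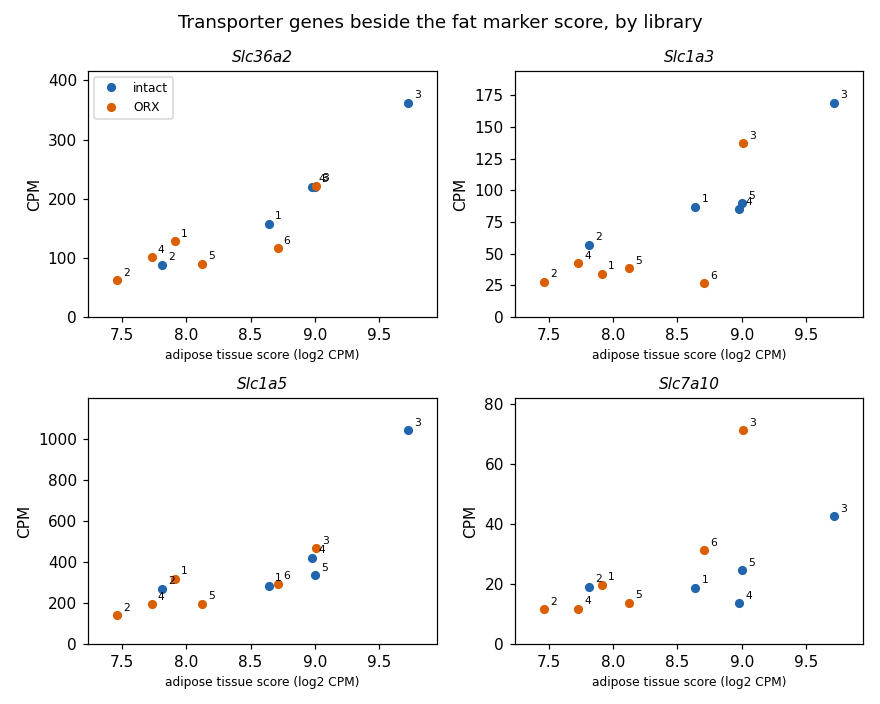
Each point is 1 library (intact blue, ORX orange, labelled by its number), with the CPM of a transporter gene on the vertical axis and the mean log2 CPM of 10 fat marker genes on the horizontal axis. Intact 3 has the highest fat score (9.72), and intact 3 and ORX 3 are the highest of their groups for each of the 4 genes. ORX 6, next to ORX 3 in fat score within ORX (8.71), has the lowest Slc1a3 level (26.8 CPM).

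The sodium-coupled neutral amino acid transporters of SLC38 included 1 fall and 7 members that did not pass. Slc38a11 (chromosome 2, 65316430 to 65364034, minus strand), one of the least studied genes of the family, had 32.6, 25.1, 30.1, 25.9 and 23.2 CPM in intact 1 to 5 and 3.69, 12.3 and 17 CPM as the lowest, median and highest in ORX. The groups did not overlap, and ORX 6 stood apart at the bottom. It fell by 1.21 on the log2 scale (SE 0.29; edgeR adjusted p = 0.0274), and by 1.03 without ORX 6 (edgeR adjusted p = 0.00549). The call ended without any 1 of intact 1, intact 5, ORX 2 and ORX 5 (largest edgeR adjusted p 0.0688, omitting intact 1).

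The glutamine transporter genes Slc38a1 and Slc38a2 were close to 0 on the log2 scale (0.10 ± 0.27 and 0.09 ± 0.18), and Slc38a2, which cells induce when amino acids run short, had 332, 211, 187, 185 and 225 CPM in intact 1 to 5 and 192, 243 and 288 CPM as the lowest, median and highest in ORX. Slc38a10 was among the steadiest members, at 277, 197, 269, 278 and 276 CPM in intact 1 to 5 and at 238, 255 and 269 CPM as the lowest, median and highest in ORX, a log2 fold change of -0.03 ± 0.13 (coefficient of variation 13.5% and 4.76%). Slc38a9, the lysosomal arginine sensor that feeds mTORC1, was at 32.4 ± 4.54 and 43.3 ± 11.7 CPM (log2 change 0.42 ± 0.18, edgeR adjusted p = 0.19). Slc38a7, a lysosomal glutamine exporter, was at 0.22 ± 0.13, Slc38a6 at 0.37 ± 0.34 and Slc38a4 at -0.36 ± 0.35. Of 24 tested genes of amino acid sensing by mTORC1, 1 fell and 23 did not pass, while 3.18% of all tested genes fell. That gene was Rragd, a Rag GTPase (44.3 ± 21.8 to 15 ± 1.73 CPM, with a log2 change of -1.56 ± 0.28 and edgeR adjusted p = 0.00661).

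The sequences before the start of Slc6a17 and Slc38a11 are shown because these members fell without overlap and their RefSeq windows (GRCm38.p6) hold at least 100 bases free of annotated transcripts. They are given 5′ to 3′ on the gene's strand, with CG dinucleotides in capitals.
Slc6a17, chr3:107518019-107518268, minus strand: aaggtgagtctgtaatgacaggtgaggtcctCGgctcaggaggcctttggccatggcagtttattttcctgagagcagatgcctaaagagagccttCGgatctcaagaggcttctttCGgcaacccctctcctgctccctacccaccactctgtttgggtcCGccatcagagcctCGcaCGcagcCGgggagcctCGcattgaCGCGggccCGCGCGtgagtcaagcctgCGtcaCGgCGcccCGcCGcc
Slc38a11, chr2:65364035-65364276, minus strand: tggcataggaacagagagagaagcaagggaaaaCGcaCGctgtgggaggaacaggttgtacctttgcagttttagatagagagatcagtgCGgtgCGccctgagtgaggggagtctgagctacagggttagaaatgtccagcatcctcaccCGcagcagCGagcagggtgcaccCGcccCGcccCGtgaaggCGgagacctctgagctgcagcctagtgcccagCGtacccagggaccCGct
They hold 18 CG in Slc6a17 and 12 in the 242 bases of Slc38a11, against a median of 11 over the windows of the members and 6 over all windows of 250 bases. A second listed window of Slc6a17, at an internal start, holds 2. Windows were listed for 29 members, 4 of them among the 8 that changed. These 4 were Slc1a1, Slc38a11, Slc6a17 and Slc7a14, which all fell, and no member that rose had a window. The steroid receptor motif AGAACA (reverse complement TGTTCT) lay in 7 of 44 windows of the members (15.9%) and in 16.1% of all windows. It lay in none of the 5 windows of those 4 members, which are too few at that share to show an absence. The palindrome of androgen and glucocorticoid receptors, which contains that motif in both orientations, the NR5A1 site CAAGGTCA (reverse complement TGACCTTG) and the cAMP response element TGACGTCA were also searched on both strands. They were found in 0, 0 and 1 windows of the members, and in 0.00913%, 1.33% and 1.55% of all windows.

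The SLC6 transporters of serotonin, glycine and GABA did not pass. Slc6a4, the serotonin transporter gene, had the smallest relative spread of the members within the intact group (coefficient of variation 9.19%), at 101 ± 9.26 CPM, and was at 82.8 ± 22.4 CPM in ORX (log2 -0.28 ± 0.18, edgeR adjusted p = 0.366). ORX 3, 5 and 6 had 94.4 to 114 CPM, against an intact range of 89.5 to 114 CPM, and the other ORX libraries 57.6 to 67 CPM. The glycine transporter genes Slc6a9, of glia, and Slc6a5, of glycinergic neurons, were at 0.39 ± 0.18 and -0.59 ± 0.52, and Slc6a13, which encodes a GABA transporter, at 0.227 to 4.5 CPM and -0.07 ± 0.68.

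The facilitators of SLC43 and the remaining SLC36 genes did not pass either. Slc43a2, which carries large neutral amino acids, went from 55.6 ± 10.8 to 38.3 ± 8.67 CPM (log2 change -0.54 ± 0.18, edgeR adjusted p = 0.0975), Slc43a1, of like substrates, was at -0.31 ± 0.49, and Slc43a3, a purine base transporter, at -0.12 ± 0.15. The lysosomal Slc36a1 was at -0.15 ± 0.17 and Slc36a4 at -0.45 ± 0.51. Slc36a4 had 0.679 CPM in ORX 6 and 7.45 to 14.8 CPM in the other ORX libraries. Over the 20 members with a longest transcript above 3926 bases the median log2 deviation of ORX 6 was -0.32 and over the 20 others 0.17, and that of Slc36a4 was -3.71. Slc7a6os, which is no transporter, was at 0.08 ± 0.18.

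Amino acid genes outside these families were counted by list, against 6.21% of all tested genes called. Of 21 tested genes in a list of other amino acid transporters and near relatives, 2 rose and 1 fell. Slc25a12, the mitochondrial aspartate and glutamate carrier, had 58 ± 9.21 CPM in intact and 97.5 ± 15.4 CPM in ORX, and rose by 0.75 ± 0.15 (log2, SE; edgeR adjusted p = 0.012). The others do not carry amino acids as their main substrate: Slc47a1, an exporter of organic cations, rose (log2 2.07 ± 0.38, edgeR adjusted p = 0.00731) and Slc2a13, an inositol transporter, fell (log2 -0.96 ± 0.26, edgeR adjusted p = 0.0447). Of 21 genes of glutamate, glutamine and GABA metabolism, Gpt2 and the proline dehydrogenase gene Prodh (23.9 ± 6.42 to 64.4 ± 17.8 CPM, with a log2 change of 1.43 ± 0.24 and edgeR adjusted p = 0.00405) rose and Gclc, of glutathione synthesis, fell (170 ± 115 to 56.5 ± 12 CPM, with a log2 change of -1.59 ± 0.41 and edgeR adjusted p = 0.0381). In the list of arginine, branched-chain and sulfur amino acid metabolism (15 genes) the argininosuccinate lyase gene Asl rose (69.3 ± 5.9 to 148 ± 38.1 CPM, with a log2 change of 1.10 ± 0.17 and edgeR adjusted p = 0.00282) and the endothelial nitric oxide synthase gene Nos3 fell (log2 -0.73 ± 0.19, edgeR adjusted p = 0.0402). None of 15 genes of serine, glycine and creatine metabolism passed in edgeR. The medians of these lists lay between 0.00 and 0.14 on the log2 scale.

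Of the 21 matching rows below the filter, Slc7a15, Slc6a18, Slc7a12 and Slc6a20b had no count in any library, which at 3 counts per library allows up to 0.195 to 0.255 CPM for counting error. Slc3a1 and Slc7a9, the heavy and light chain of the renal cystine transporter, had 2 to 14 counts per library and 1 count in all. The dopamine transporter gene Slc6a3 had 37 counts over the 11 libraries. Slc38a3 and Slc38a5, glutamine transporter genes known from liver and pancreas, were uneven. Slc38a3 had 138 counts in ORX 6, 51 in ORX 4, 26 in ORX 1 and 13 in intact 1, and 0 to 8 in the others. The score of liver markers was highest in the same 4 libraries (5.02 in ORX 6, 3.58 in ORX 4, 2.94 in intact 1 and 2.35 in ORX 1, against -1.29 to 1.72 elsewhere), and its part in Slc38a3 was not tested. Slc38a5 had 35 counts in ORX 6, 32 in ORX 4 and at most 10 elsewhere.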

How the data were processed

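Per the labels' protocols, 300 ng of total RNA entered each TruSeq library, and both a stranded and an unstranded guide are named. The table deposited by the authors holds unnormalized read counts by gene symbol. The tools bcl2fastq 1.8.4 and Subread 1.5.1 and the build mm10 stand in the submitters' processing notes. The sources used here give neither annotation nor strand setting, so the 10 members with antisense exon overlap may hold reads of a partner. The deposited table stands in the file as 2 identical copies, and the first was used.

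Genes were filtered with filterByExpr (minimum count 10, minimum total 15), which kept 14139 genes with 99.9% of the counts and all 40 members. Counts were scaled by TMM and fitted with edgeR 4.0.16 in R 4.3.3, ORX against intact, in a two-sided quasi-likelihood test whose p-values were adjusted by Benjamini-Hochberg over the 14139 genes. Scores are means of log2 CPM (prior count 2) over marker lists. Levels per kilobase use GENCODE M21 exon lengths (GRCm38, the assembly of mm10), and all 40 members matched. Alternatives used DESeq2 1.42.0 and limma 3.58.1, among others.

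The labels give no batch and do not say that each sample is a separate animal, so p-values measure the spread between samples, which may be partly technical. No libraries of a group agreed within sampling noise (chi-square per degree of freedom at least 26.8). Full values were given for members that passed, that did not overlap or that were among the 6 with the highest mean CPM, for list genes that passed, and for some others chosen after their values were seen. Members and lists were chosen with earlier results of these data known. Some matching genes below the filter are not reported here by name.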

Additional observations from a re-analysis of the deposited data

Results flagged for a closer look

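In 80 groups of libraries (40 members, each in intact and in ORX), 4 libraries stood apart from the rest of their group on the log2 CPM scale. Chance alone flags about 1 in 20 such groups. Slc38a10 in intact 2 had 197 CPM, against 269 to 278 CPM in the other intact libraries. Slc1a3 in ORX 3 had 137 CPM, against 26.8 to 42.3 CPM in the other ORX libraries. Slc38a11 and Slc36a4 were low in ORX 6, at 3.69 CPM against 10.3 to 17 CPM and at 0.679 CPM against 7.45 to 14.8 CPM in the other ORX libraries.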

How the results depend on the processing

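Slc7a5, Slc6a17 and Slc7a14 passed at an adjusted p under 0.05 in every alternative fit except that with the medulla covariate, and no called value changed sign. The 3 rises and 5 falls were the same 8 genes with RLE scaling, library totals, no filter and a filter of 1 CPM in 5 libraries. The members that fell numbered 9 with limma voom, 9 without intact 3 and ORX 3 together (chosen after seeing the data), 8 without intact 3 and ORX 6 together and 2 at an adjusted p under 0.01. The members that rose numbered 0 at that threshold and 1 with the fat score as a covariate (also chosen after seeing the data). With the medulla covariate 0 rose and 0 fell. Leaving out 1 library gave 1 to 3 rises, with 1 without any 1 of intact 1, 2 and 5 and ORX 1, 2 and 5. It gave 2 to 7 falls, with 3 without intact 1, ORX 2 or ORX 5 and 2 without intact 5. Among all tested genes the calls numbered 1630 with DESeq2, 2056 with limma voom, 84 with the medulla covariate, 260 at 0.01, 1564 without intact 3 and ORX 3 together, and 408 (without intact 5) to 1280 (without ORX 3) without 1 library, against 878. They were 434 to 570 also without intact 1, intact 2, ORX 1, ORX 2, ORX 4 or ORX 5. DESeq2 called 10 members, the 8 and Slc7a4 and Slc7a11. The cause of these shifts was not tested.

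With the sample number as a replicate block, 416 genes passed, with 2 rises and 5 falls among the members: Slc6a15, Slc1a1 and Slc6a8 no longer passed and Slc1a3 and Slc7a4 did. Correlations between same-numbered samples were -0.28, -0.12, -0.21, 0.18 and 0.18, within the range of differently numbered pairs (-0.29 to 0.34). The labels do not say whether samples of the same number share anything else, and these few correlations cannot decide it. Of 873 values of single genes under an alternative, 39 lost and 19 gained a call, and 43, of 18 genes that passed in neither fit, changed sign. At this depth, members under about 1 CPM, such as Slc1a6, rest on few counts.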
